A study of Mus musculus with 7 samples.

Results

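The receptors for the transmitters glutamate, GABA, glycine and acetylcholine were examined in ribosome-bound RNA from mouse retina. The set comprises the ionotropic glutamate receptors (Gria, Grik, Grin and Grid genes), the metabotropic glutamate receptors (Grm genes), the GABA-A and GABA-B receptors (Gabr and Gabbr), the glycine receptors (Glra and Glrb) and the nicotinic acetylcholine receptors (Chrn). Members were taken by gene symbol, from gene families chosen with earlier results of these data known. Of the 12756 genes in the table, 45 belonged to the set. One further metabotropic glutamate receptor gene was not analysed here. All mice were adult C57BL/6 animals of the genotype Cdh5-CreERT2 Rpl22 tm1.1Psam, in which a Cre recombinase that is switched on by tamoxifen and driven by the Cdh5 promoter marks the ribosomal protein Rpl22 with an HA tag in endothelial cells. They had received either a control IgG (3 libraries) or an anti-Dll4 antibody (4 libraries), which binds a Notch ligand of endothelial cells. The labels give no dose or time of treatment. The tag served to pull down ribosome-bound RNA, which was read from its 3′ ends. Nothing in the labels ties the libraries to separate animals, and p-values therefore measure only the spread between these libraries, which may in part be technical. The libraries are called by the numbers of the table's columns, and control IgG 1 is a control whose own title could not be matched.

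In the retina, photoreceptors release glutamate onto bipolar and horizontal cells, and bipolar cells release it onto amacrine and ganglion cells. AMPA and kainate receptors are fast cation channels opened by glutamate, NMDA receptors are slower channels that also pass calcium, and metabotropic receptors act through G proteins. Amacrine cells release GABA, glycine or acetylcholine, which open chloride channels (GABA-A and glycine receptors) or cation channels (nicotinic receptors) on other neurons. These genes are known mainly from neurons and glia.

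The pulled-down RNA held transcripts of many retinal cell types although the samples are labelled as endothelial cells. Of 19 endothelial markers all were in the table, with a summed level of 2101 to 3200.1 CPM (reads per 1000000 reads of the listed genes) in the control and 4416 to 5635 CPM in the anti-Dll4 libraries. The 14 rod photoreceptor markers, none of them at 0 in any library, summed to 24559.9 to 26029 CPM in the control and 11091 to 20488 CPM in the anti-Dll4 libraries. Libraries held 1356192 to 1771086 reads, and 3 reads, the count that an absent gene could still allow, corresponded to 1.69 to 2.21 CPM. Molecular identifiers are not mentioned in the labels, and intervals and floors cover counting error only. Since the RNA was pulled down from whole retinas, several sources of a lower level cannot be told apart. These are fewer cells of a type, less RNA per cell and less of its RNA carried over in the pull-down.

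Promoters are shown for Gria2 and Gabrr2, since these were 2 of the 3 tested members whose anti-Dll4 libraries all lay below the control libraries. The other one, Grin2b, is named only. The sequences run from 250 bases before to 50 bases after the start of transcription, 5′ to 3′ on the gene's strand, from RefSeq (GRCm38.p6), where 28 of the 45 members had at least 1 entry. In Gria2 (chr3:80802786-80803085, minus strand) the capitals mark a match to the RE1 core, an element bound by the repressor REST, which lies there on the opposite strand; the 2 bases in its middle were left free in the search. In Gabrr2 (chr4:33062862-33063161, plus strand) they mark TAATCC, the core letters bound by the retinal factors CRX and OTX2, also on the opposite strand.
Gria2: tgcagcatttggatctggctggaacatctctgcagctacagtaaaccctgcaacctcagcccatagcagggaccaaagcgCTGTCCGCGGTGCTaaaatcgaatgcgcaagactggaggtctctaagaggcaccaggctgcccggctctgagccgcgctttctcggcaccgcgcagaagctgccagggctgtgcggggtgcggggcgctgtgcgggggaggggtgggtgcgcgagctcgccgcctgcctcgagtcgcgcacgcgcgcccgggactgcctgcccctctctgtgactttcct
Gabrr2: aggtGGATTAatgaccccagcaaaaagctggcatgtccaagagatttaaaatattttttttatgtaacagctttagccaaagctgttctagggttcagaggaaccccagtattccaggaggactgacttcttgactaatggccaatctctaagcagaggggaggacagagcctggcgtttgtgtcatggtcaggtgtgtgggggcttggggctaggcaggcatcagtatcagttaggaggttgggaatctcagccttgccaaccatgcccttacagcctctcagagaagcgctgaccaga

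The motifs were searched on both strands, and the RE1 core was chosen after the Gria2 promoter had been read. Of 32851 promoters of this length, 17 (0.0517%) held the RE1 core, and Gria2 was the only member among them. TAATCC was in 7.06% of all promoters and in 2 of the 35 member promoters, those of Gabrr2 and Chrne. The GC box GGGCGG was in 18 of the 35 member promoters (51.4%) and in 35.7% of all promoters, and the TATA box TATAAA in 5 of 35 (14.3%) and in 13.6% of all. Neither of these was in the promoters shown, in which the motifs did not overlap. The GC content was 65.7% for Gria2 and 49.3% for Gabrr2, against a median of 60.7% over the member promoters and 52.7% over all. A match is a description of these letters and not a sign of binding.

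Receptor transcripts were sparse, and reads of many members came from few libraries. Of the 45 members, 15 had reads in all 7 libraries (33.3%, against 52.4% of all genes), and 32.7% of the members' values were 0, against 18.5% over all genes. In 21 members (46.7%) over 50% of all reads lay in 1 library, against 33.8% of all genes. Members also had fewer reads, with a median of 142 in total against 298 over all genes. Among genes with at least 100 reads, the share with over 50% of reads in 1 library was 32.3% (10 of 31 members) and 20.4% over all such genes. Grm7, for example, had 226 of its 238 reads in anti-Dll4 4, and 9, 0 and 3 in the controls. Chrnb4, although it had only 28 reads in all, had 5, 2 and 5 reads in the control and 4 in each anti-Dll4 library. The number of members with reads was 35, 30 and 34 in the control libraries and 28, 32, 21 and 32 in the anti-Dll4 libraries 1 to 4.

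**Figure D1:**
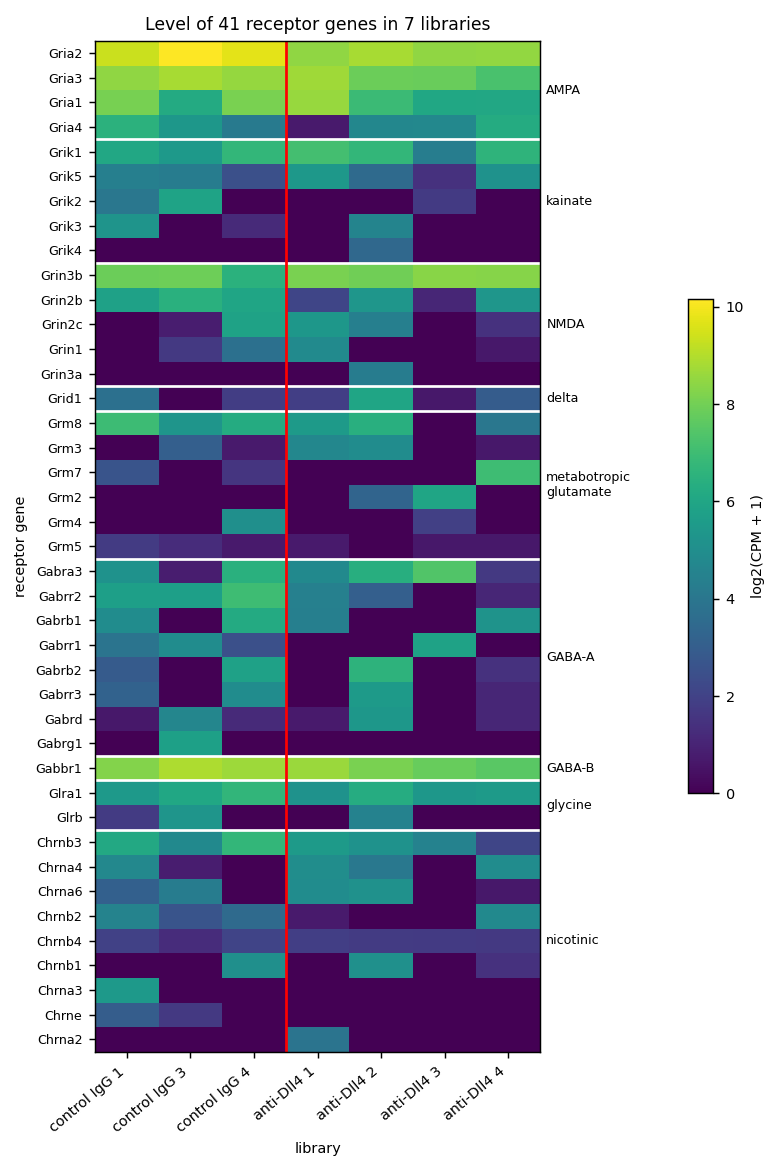
Heat map of log2(CPM + 1) for 41 of the receptor genes (rows, grouped by family and ordered by mean level) in 3 control IgG and 4 anti-Dll4 libraries (columns, divided by the red line). Bright rows that run through all libraries are few (Gria2, Gria3, Gria1, Grin3b and Gabbr1). Many other rows are bright in only some libraries, such as Grm7, which is brightest in anti-Dll4 4.

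No receptor gene passed the test between anti-Dll4 and control IgG. Of the 45 members, 34 had at least 1 CPM in at least 3 libraries and were tested, and 0 of them had a Benjamini-Hochberg adjusted p under 0.05 (limma across 10899 genes), against 0.119% of all tested genes. The smallest adjusted p of a member was 0.303, that of Gria2. By voom on the whole reads 0 members were called as well, against 0.367% of all genes, with 0.144 as the smallest adjusted p. At an unadjusted p under 0.05, 3 members were lower (Gria2, Gabrr2 and Grik2), against 3.41% of all genes, and 0 were higher, against 3.68%. The anti-Dll4 libraries all lay below the control libraries for 3 members (Gria2, Gabrr2 and Grin2b), against 3.75% of all genes, and all above for 1 (Grin3b), against 3.84%. With libraries scaled on the rod markers, the groups separated for 1 member lower (Gabrr2), against 1.39% of all genes, and for 2 higher (Grin3b and Chrnb4), against 9.12%. With libraries scaled on the endothelial markers, they separated for 6 members lower (Gabbr1, Gabrr2, Glra1, Gria2, Gria3 and Grin2b), against 17.1% of all genes, and for 0 higher, against 0.762%.

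The median log2 change, anti-Dll4 minus control, was -0.65 over the 34 tested members and -0.14 over all tested genes, on the log2(CPM + 1) scale, which understates changes of low genes. It was negative for 24 of the 34 members (70.6%), against 54.5% of all genes. The members differed widely in precision, with standard errors from 0.33 for Gria2 to 1.94 for Gabrb1. These errors depend on limma's mean-variance trend. Without the trend, the error of Gria2 was 0.61, near those of Gabbr1 (0.64) and Gria3 (0.65). The unadjusted p of Gria2 was then 0.0892 (limma) and no longer under 0.05. Leaving out anti-Dll4 3, which had the fewest members with reads, brought the median from -0.65 to -0.40.

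**Figure D2:**
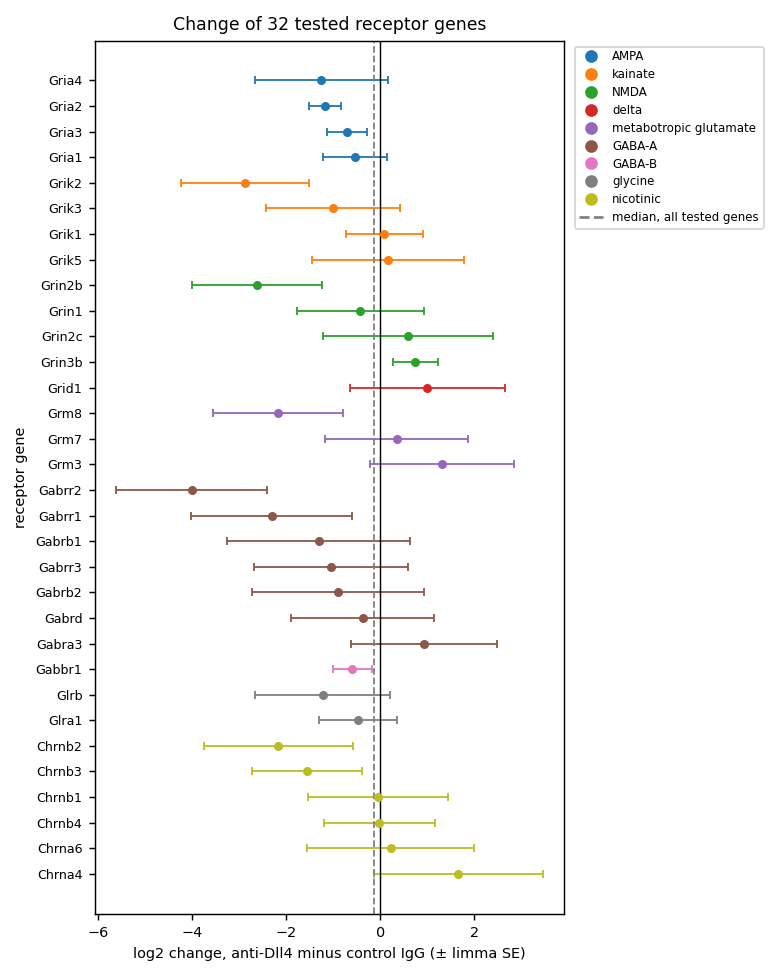
Log2 change (anti-Dll4 minus control IgG, horizontal axis, ± limma standard error) of 32 of the tested receptor genes, coloured by family; the dashed line is the median of all tested genes, -0.14. Gria2 has the shortest bar and lies below 0, and most other bars are wide.

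AMPA receptors are tetramers of the subunits GluA1 to GluA4, encoded by Gria1 to Gria4, and carry most fast glutamate signals. They held 51.7% of the summed receptor CPM in control libraries. Gria2 encodes the subunit that makes these channels nearly impermeable to calcium once its RNA is edited. It was at 644, 1143 and 863 CPM in the control libraries and at 356, 449.5, 356 and 366 CPM in anti-Dll4 1 to 4. All 4 anti-Dll4 libraries lay below the lowest control library, anti-Dll4 2 somewhat above the other 3. The mean was 884 ± 249.9 CPM (SD, n = 3) against 382 ± 45.4 CPM (SD, n = 4). The log2 change of -1.18 ± 0.33 (SE) did not pass (adjusted p = 0.303, limma; 0.00766 to 0.812 over the alternatives). It was -0.46 with libraries scaled on the rod markers and -2.20 scaled on the endothelial markers, the setting with the lowest adjusted p.

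The other AMPA subunits had negative changes with overlapping groups, although rod marker scaling, which took the median of all genes from -0.14 to 0.47, brought Gria1 to 0.16 and Gria3 to 0.00234. Relative to the median gene, Gria1 was at -0.41 as deposited and -0.31 under that scaling, and Gria3 at -0.57 and -0.47. Gria3 was at 358, 458 and 376 CPM in the control and at 413, 237, 227 and 151 CPM in the anti-Dll4 libraries (log2 change -0.71 ± 0.43), so that anti-Dll4 1 lay among the controls. Gria1 was at 266, 72.3 and 277 CPM against 386, 119.9, 64.6 and 67.2 CPM (-0.55 ± 0.68), with the highest value in an anti-Dll4 library. Its change ran from -1.18 without control IgG 3 to -0.22 without control IgG 4. Gria4 was at 92.1, 40.6 and 16.9 CPM against 0.670, 25.1, 25.5 and 74.5 CPM (-1.26 ± 1.41). As a family, AMPA genes summed to 1536 ± 177 CPM (SD, n = 3) in control and 829.7 ± 231 CPM (SD, n = 4) in anti-Dll4 libraries, and the highest anti-Dll4 library (1155 CPM) lay below the lowest control library (1360.2 CPM).

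The share of Gria2 among AMPA reads did not separate the groups. It was 47.4%, 66.7% and 56.3% in the control and 30.8%, 54.0%, 52.9% and 55.6% in the anti-Dll4 libraries. The lowest share, in anti-Dll4 1, had a 95% Wilson interval of 28.6% to 33.0% (531 of 1725 reads) and the highest, in control IgG 3, of 64.8% to 68.6% (1550 of 2324 reads). Within the control group, the interval of control IgG 1 was 45.3% to 49.4%, below that of control IgG 3. Libraries of the same group thus differed by more than counting error, if each read is taken as a separate molecule.

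Kainate receptors are built from Grik1 to Grik5 products and serve, among others, the OFF bipolar cells. Grik1, the most abundant of them, was at 67.9, 43.5 and 105.6 CPM in the control and 138, 105.8, 18.7 and 95.4 CPM in the anti-Dll4 libraries, with a log2 change of 0.08 ± 0.82 whose sign turned under several alternatives. Grik2 had 26, 79 and 0 reads in the control and 0, 0, 4 and 0 reads in the anti-Dll4 libraries. Its log2 change was -2.88 ± 1.35 (adjusted p = 0.695, limma). It rested on 2 control libraries, 1 of which held 72.5% of all its reads, and was -4.53 without control IgG 4. Grik5, a subunit that needs a partner to form a channel, had a change of 0.17 ± 1.61. Grik3 had 63, 0 and 2 reads against 0, 38, 0 and 0 reads. Grik4 had 16 reads, all in anti-Dll4 2. The summed kainate level was 124 ± 14.9 CPM (SD, n = 3) and 121 ± 68.4 CPM (SD, n = 4).

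NMDA receptors need the GluN1 subunit, encoded by Grin1, together with GluN2 or GluN3 subunits. Grin1 was low, with 0, 3 and 19 reads in the control and 42, 0, 0 and 1 reads in the anti-Dll4 libraries, and its end overlaps Grin1os on the opposite strand. Grin2b, a GluN2 subunit that gives slow currents, was at 55.5, 87.0 and 62.6 CPM in the control and 3.35, 39.1, 1.13 and 39.0 CPM in the anti-Dll4 libraries. All 4 lay below the controls, anti-Dll4 1 and 3 much further than the others. The mean was 68.3 ± 16.5 CPM (SD, n = 3) against 20.6 ± 21.3 CPM (SD, n = 4). The log2 change was -2.62 ± 1.38 (adjusted p = 0.711, limma). Grin2c, another GluN2 subunit, had a change of 0.59 ± 1.81, and Grin3a had 30 reads, all in anti-Dll4 2.

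Grin3b, which encodes a GluN3 subunit that binds glycine, was the only tested member whose anti-Dll4 libraries all lay above the controls. It was at 237, 242 and 89.3 CPM in the control and 279, 245, 323 and 318 CPM in the anti-Dll4 libraries. The gap was narrow, since anti-Dll4 2 (244.6 CPM) and control IgG 3 (241.9 CPM) were nearly equal. The log2 change was 0.74 ± 0.48 (adjusted p = 0.765, limma), 0.27 without control IgG 4, 1.46 with libraries scaled on the rod markers and -0.28 scaled on the endothelial markers. In GENCODE M21 the last 1000 bases of Grin3b overlap Tmem259, a gene on the opposite strand, which was at 233 ± 56.5 CPM (SD, n = 3) and 374 ± 51.7 CPM (SD, n = 4). The sources used here do not give whether the counting used strand, and reads of Grin3b and Tmem259 cannot be told apart.

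Among the delta receptors, which resemble glutamate channels but act mainly as synaptic adhesion proteins, only Grid1 was in the table. It was at 12.4, 0 and 2.61 CPM in the control and 2.68, 61.2, 0.566 and 6.78 CPM in the anti-Dll4 libraries. Its log2 change of 1.00 ± 1.65 went to -0.036 without anti-Dll4 2.

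Of 7 metabotropic glutamate receptors in the table, 3 were tested. Grm8, a presynaptic receptor that lowers transmitter release, was at 123.9, 38.3 and 74.3 CPM in the control and 45.5, 83.8, 0 and 15.2 CPM in the anti-Dll4 libraries. The groups overlapped, with anti-Dll4 2 above 2 of the controls, and the log2 change was -2.17 ± 1.38, or -0.84 without anti-Dll4 3, the library at 0. Grm3 had 0, 10 and 1 reads in the control and 37, 48, 0 and 1 reads in the anti-Dll4 libraries (1.30 ± 1.53), and Grm7, another presynaptic receptor, a change of 0.34 ± 1.53 that came from 1 library. Grm5, which couples to calcium release, had 10 reads in all. Grm2 was at 0 in the control libraries and had 14 and 109 reads in anti-Dll4 2 and 3, whereas Grm4 had 50 reads in control IgG 4 and 5 in anti-Dll4 3.

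**Figure D3:**
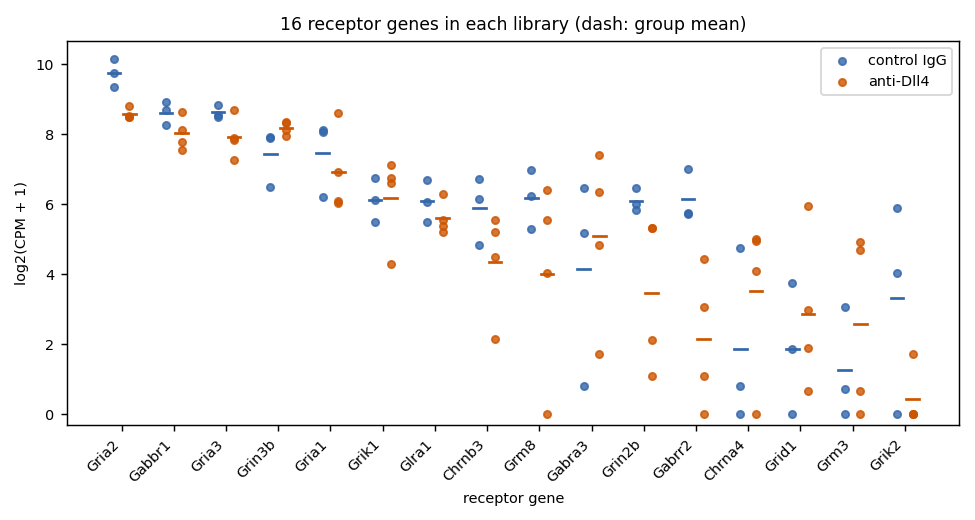
Level, as log2(CPM + 1), of 16 receptor genes in each control IgG (blue) and anti-Dll4 (orange) library, ordered by mean level, with dashes for group means. Gria2, Grin2b and Gabrr2 have all orange points below the blue ones and Grin3b has them above; the spread widens towards the genes on the right.

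GABA-A receptors are pentamers of subunits from several classes. The Gabrr genes encode the subunits of the slowly closing GABA receptors on bipolar cell endings. Gabrr2 was at 51.9, 52.4 and 127.7 CPM in the control and at 20.8, 7.34, 0 and 1.13 CPM in the anti-Dll4 libraries. All 4 lay below the controls, in reads 31, 12, 0 and 2 against 88, 71 and 196. The mean was 77.3 ± 43.6 CPM (SD, n = 3) against 7.31 ± 9.53 CPM (SD, n = 4). The log2 change of -4.01 ± 1.60 did not pass (adjusted p = 0.662, limma; 0.123 to 0.903 over the alternatives). The other Gabrr genes did not separate the groups. Gabrr1 had 24, 40 and 7 reads in the control and 0, 0, 101 and 0 reads in the anti-Dll4 libraries (-2.31 ± 1.71), so that its highest library was an anti-Dll4 one, and Gabrr3 had 14, 0 and 45 against 0, 74, 0 and 2 reads (-1.06 ± 1.63).

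Changes were negative for 8 of 9 tested GABA-A genes (median -1.06). The exception was Gabra3, an alpha subunit, at 34.8, 0.737 and 87.3 CPM in the control and 27.5, 80.7, 169 and 2.26 CPM in the anti-Dll4 libraries. Its change of 0.93 ± 1.56 turned to -0.74 without control IgG 3. Gabrb1 (-1.32 ± 1.94), Gabrb2 (-0.90 ± 1.82) and the extrasynaptic subunit Gabrd (-0.38 ± 1.53) had errors larger than their changes. Gabrg1, a gamma subunit, was below the filter, with 73 reads that all lay in control IgG 3. The summed GABA-A level was 310.4 ± 121 CPM (SD, n = 3) and 209.5 ± 71.3 CPM (SD, n = 4), with overlapping groups.

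Gabbr1, which encodes the GABA-binding subunit of the G protein-coupled GABA-B receptor, was at 308, 478 and 408 CPM in the control and at 399, 275, 219 and 186 CPM in the anti-Dll4 libraries. Anti-Dll4 1 lay among the controls and the other 3 below them. The log2 change was -0.60 ± 0.42 (adjusted p = 0.792, limma), and 0.12 with libraries scaled on the rod markers. Glra1, the alpha1 subunit of the glycine receptor, was at 44.3, 65.6 and 101.7 CPM against 35.5, 77.7, 40.2 and 45.7 CPM (-0.48 ± 0.83, and 0.22 scaled on the rod markers). Glrb, the beta subunit that ties the receptor to gephyrin, had 4, 52 and 0 reads against 0, 35, 0 and 0 reads (-1.23 ± 1.44).

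Of 9 nicotinic receptor genes, 6 were tested, and their changes were negative for 4 and positive for 2, with a median of -0.04. Chrnb3, a beta subunit, was the most abundant, at 69.6, 27.3 and 104.3 CPM in the control and 45.5, 35.5, 21.5 and 3.39 CPM in the anti-Dll4 libraries, with overlapping groups (-1.56 ± 1.18, and -0.82 without anti-Dll4 4). Chrna4 had 44, 1 and 0 reads in the control and 46, 26, 0 and 53 reads in the anti-Dll4 libraries (1.66 ± 1.80). Its change was 3.11 without control IgG 1, 0.73 without control IgG 4 and 2.82 without anti-Dll4 3. Chrna6 had a change of 0.22 ± 1.77 and Chrnb2 of -2.17 ± 1.58. Chrnb2 overlaps Adar, on the opposite strand, within its last 1000 bases, so that their reads cannot be told apart either. Chrnb1, a subunit of the muscle receptor, had a change of -0.05 ± 1.49 and Chrnb4 of -0.02 ± 1.18. Chrna3 had 74 reads, all in control IgG 1, and Chrna2 had 21 reads, all in anti-Dll4 1, the same reads as Itih1 and Pnpla8 in every library. Chrne had 12, 3 and 0 reads in the control and 0 in the anti-Dll4 libraries.

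Summed over all 45 genes, receptor transcripts made up 2753, 3057 and 3087 CPM in the control and 2470.2, 2266.0, 1625 and 1744 CPM in the anti-Dll4 libraries. Every anti-Dll4 library lay below every control library. The means were 0.297% ± 0.0185 of all CPM (SD, n = 3) and 0.203% ± 0.0406 (SD, n = 4). Without Gria2 the groups overlapped, at 2082 ± 156 and 1644 ± 393 CPM. AMPA genes made up -706 CPM of the total difference of -939 CPM, Gabbr1 -128 CPM and the GABA-A genes -101 CPM. The NMDA genes were 57.8 CPM higher, a rise that depended on Grin3b (mean 189 against 291 CPM). Reads of Grin3b cannot be told apart from those of Tmem259. Of the other NMDA genes, Grin2b (68.3 against 20.6 CPM) and Grin2c (18.9 against 15.5 CPM) had lower means in the anti-Dll4 libraries. Grin1 (4.86 against 7.17 CPM) and Grin3a (0 against 4.59 CPM) had higher ones.

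**Figure D4:**
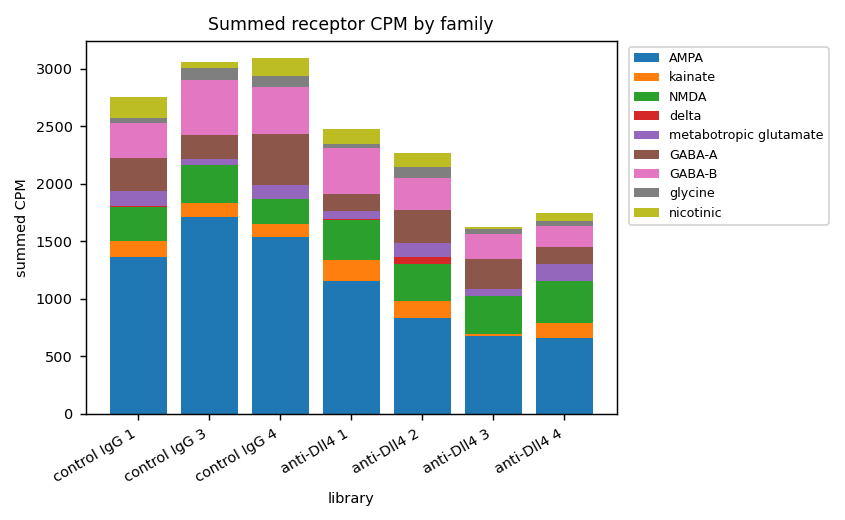
Summed CPM of the receptor genes in each library, stacked by family, on an axis that starts at 0. The AMPA block is the largest in every library, and its height goes from 1360.2 to 1714 CPM in the control to 659 to 1155 CPM in the anti-Dll4 libraries.

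The level of rod markers moved with these sums. The 14 rod markers summed to 25388 ± 752 CPM in the control (SD, n = 3) against 15826 ± 3939 CPM in the anti-Dll4 libraries (SD, n = 4), and 12 of them had a negative change. Both sums were lowest in anti-Dll4 3. Among the controls, the receptor sum was lowest in control IgG 1 and the rod sum in control IgG 3. Per 1000 CPM of rod markers, the receptor genes stood at 108, 124 and 119 CPM in the control and at 121, 134, 147 and 118 CPM in the anti-Dll4 libraries, so that the groups overlapped, and Gria2 stood at 35.0 ± 10.8 CPM (SD, n = 3) and 25.2 ± 6.07 CPM (SD, n = 4). With libraries scaled on the rod markers, the median log2 change of all genes went to 0.47 and that of the members to -0.10, and 18 of 34 members were negative. With libraries scaled on the endothelial markers, these medians were -1.03 and -1.55, and 30 of 34 were negative. Either scaling moves nearly all genes alike, so the distance between the members' median and that of all genes hardly depends on it. That distance was -0.52 with all libraries, -0.33 without anti-Dll4 3, -0.34 without anti-Dll4 4 and -0.72 without control IgG 3.

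The summed markers of cones, inner retinal neurons and glia overlapped between control and anti-Dll4 libraries, although single markers did not. The 12 bipolar markers summed to 1388 to 1609 CPM in the control and 1304 to 1627 CPM in the anti-Dll4 libraries. Of the 13 amacrine markers, 12 were in the table, at 564 to 730.5 CPM and 267 to 653 CPM, and of the 13 ganglion cell markers 12, at 210.1 to 335 CPM and 249.0 to 423 CPM. The 10 cone markers were at 812 to 1101 CPM and 663 to 1158 CPM, and the 5 of 8 horizontal cell markers in the table at 68.5 to 232 CPM and 143 to 243 CPM. Among glia, the 12 Müller glia markers were at 1715 to 2714 CPM and 1781 to 2748 CPM, and the 3 of 6 astrocyte markers in the table at 0 to 68.6 CPM and 0 to 7.93 CPM. The Müller glia marker Vim is an intermediate filament gene that endothelial cells and pericytes also express. It was at 72.0, 40.6 and 139 CPM in the control and 485, 299, 382 and 498 CPM in the anti-Dll4 libraries. Every anti-Dll4 library lay above the controls (log2 change 2.44 ± 0.51, adjusted p = 0.0656, limma). Of the 12 Müller glia markers, 8 had a positive and 4 a negative change. Rlbp1, with the next smallest p among them, had a change of -1.55 ± 0.92, with overlapping groups. The sums of the 6 red blood cell markers (1398 to 18719 CPM and 661 to 36014 CPM), of the 8 of 11 pericyte and smooth muscle markers in the table (153 to 241 CPM and 130.3 to 495 CPM) and of the 5 of 10 microglia markers (31.7 to 114 CPM and 28.7 to 279 CPM) overlapped too. The endothelial markers were at 2491 ± 615 and 4999 ± 535 CPM. The part of any of these cell types in the receptor values was not tested.

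**Figure D5:**
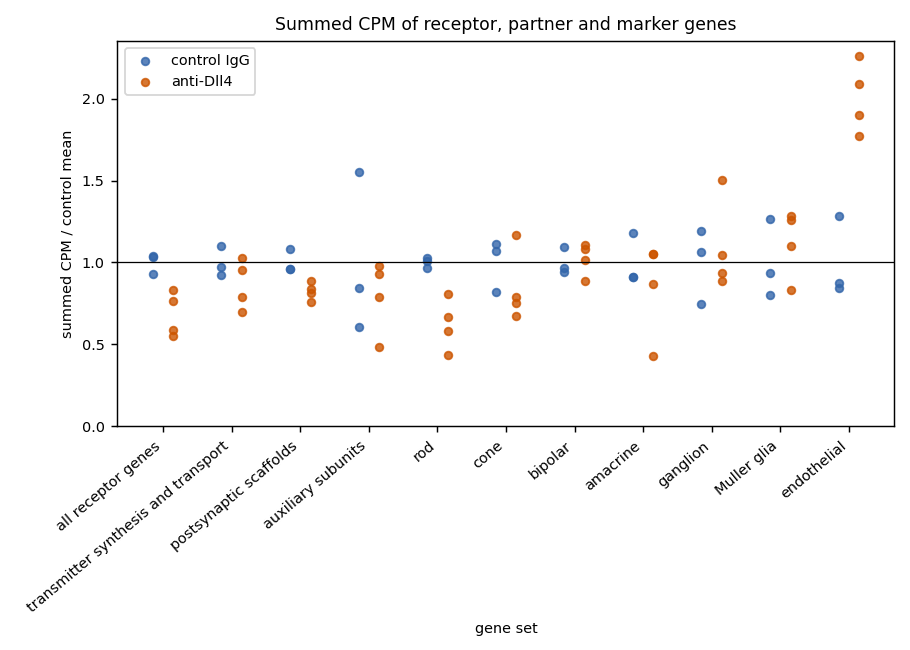
Summed CPM of the receptor genes, 3 lists of partner genes and 7 marker lists in each library, divided by the mean of the control libraries (line at 1). The anti-Dll4 points (orange) lie below the control points (blue) for receptor, scaffold and rod genes, above them for endothelial genes, and overlap them for the other lists.

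Genes that work with the receptors had no member past the threshold in any of the 3 lists. Of 21 auxiliary subunits, which guide receptors to synapses or tune their gating, 15 were in the table and 6 were tested, 4 of them with a negative change (median -0.42). The 2 with the smallest p were Ric3, a chaperone of nicotinic receptors (-1.99 ± 1.61), and Cacng5, a partner of AMPA receptors (-1.65 ± 1.65). Of 15 tested scaffold genes, 11 had a negative change (median -0.60), and their sum went from 6577 ± 466 to 5411 ± 345 CPM, with groups that did not overlap. Dlgap1 (-3.29 ± 1.64) and Dlg4, which encodes the scaffold PSD-95 (-0.27 ± 0.17), had the smallest p there, and Dlg4 alone stood at 4857 ± 386 and 4041 ± 498 CPM.

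Of 17 tested genes for the synthesis and transport of transmitters, 12 had a negative change (median -0.31). Slc6a9, the glycine carrier GlyT1 of amacrine cells, which is also in the amacrine list, was at 193 ± 52.2 CPM (SD, n = 3) and 70.1 ± 56.7 CPM (SD, n = 4). Its log2 change was -2.04 ± 0.86 (adjusted p = 0.688, limma). Slc1a2, which encodes a glutamate carrier, was at 249.5 ± 41.5 and 119 ± 77.4 CPM (-1.36 ± 0.63, adjusted p = 0.695, limma). Of the 38 genes tested in the 3 lists, these 2 were lower at an unadjusted p under 0.05 (5.26%, against 3.41% of all genes) and 0 were higher (against 3.68%). The anti-Dll4 libraries all lay below the controls for 4 of the 38 (Slc6a9, Slc1a2, Ache and Gripap1), against 3.75% of all genes.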

How the data were processed

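The authors deposited log10 values of CPM plus 1 for 12756 genes in 7 libraries, per the file headers and the values. Per the submitters' processing notes, cutadapt, TopHat2 and bedtools were used, with roles and versions not given in the sources used here. The notes name hg19, a human build, although the symbols are those of mouse genes, so no gene coordinates are taken from the data. QuantSeq reads the 3′ end of transcripts, so CPM is not divided by gene length. Turned back from log10, CPM summed to 1000000 per library and 100% of values were whole multiples of 1 read (tolerance 1e-06). Listed genes held 1356192 to 1771086 reads per library, of a median of 20000000 sequenced per the labels. Column Ctrl1 shares its number with none of the control titles, so it served as an unnumbered control, and 0 columns were left out.

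Genes that reached 1 CPM in 3 or more libraries were fitted on log2(CPM + 1) with limma 3.58.1 in R 4.3.3 (two-sided, with its mean-variance trend, Benjamini-Hochberg over all 10899 genes, threshold 0.05). The fit was also run on simulated data with known changes. The share of these changes that it found is not reported here. The design left the log base open, and the values were converted from log10. Alternatives were other pseudocounts, filters and scalings, no trend, voom, a replicate block and each library left out.

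The members and lists were chosen with earlier results of these data known. Named members are the tested ones whose groups do not overlap (up to 12), the 10 with the highest mean, the highest of each family and the 5 smallest p in each direction, which gave 16. From each list of partners up to 2 genes with the smallest p are named, and beyond them those whose groups do not overlap. The other members are given with their reads or changes, except some that enter the counts and sums and are not reported here singly.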

Additional observations from a re-analysis of the deposited data

Results flagged for a closer look

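Named genes and family sums were searched for an anti-Dll4 library that stood apart from the other 3, its gap to the nearest library, over the group's range, exceeding Dixon's 95% critical value for 4 samples. For normally distributed values chance alone gives this in about 1 of 20 groups. It was found for 5 of 26 values, to which that rate does not strictly apply, since sums share genes with the named members and some groups hold values at 0. Gria2 was at 449.5 CPM in anti-Dll4 2, with the others at 356 to 366 CPM. Grid1, and with it the delta receptors, of which it is the only gene, was at 61.2 CPM in anti-Dll4 2, with the others at 0.566 to 6.78 CPM. The glycine receptor genes summed to 99.1 CPM in anti-Dll4 2, with the others at 35.5 to 45.7 CPM. Grik2 was at 2.27 CPM (4 reads) in anti-Dll4 3 and at 0 in the others.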

How the results depend on the processing

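The count of receptor genes past the threshold was 0 in every fit run but the one scaled on endothelial markers, where it was 1 (Gria2, log2 change -2.20). The members' median change ran from -0.93 to -0.40 with a library left out, and it was -1.55 scaled on endothelial markers. With a replicate block on the title numbers the median was -1.17, and its distance from the median of all genes was -1.10 in place of -0.52. The changes in that block rest on the pairs numbered 3 and 4 alone. Control IgG 1, anti-Dll4 1 and anti-Dll4 2 have no partner by title number and do not enter them. The difference in summed receptor CPM ran from -1087 to -806 CPM with a library left out, was 255 CPM higher in anti-Dll4 libraries when scaled on rod markers and -3216 CPM when scaled on endothelial markers. Under rod marker scaling the changes of Gabbr1 (0.12), Glra1 (0.22), Gria1 (0.16) and Gria3 (0.00234) turned positive, and under endothelial marker scaling those of Gabra3 (-0.00197), Grik1 (-0.93) and Grin3b (-0.28) turned negative. The block on title numbers turned Grik1 (-0.66) and Grm3 (-1.57). Of the 97 reads of Grm3, 37 and 48 lay in anti-Dll4 1 and 2, which do not enter the changes in that block. With a library left out, Grik1 ran from -0.23 to 0.71, Gabra3 from -0.74 to 2.10 and Grid1 from -0.036 to 1.94. A replicate block on the column numbers turned Grik1 (-0.10) and Grid1 (-0.036). Anti-Dll4 2 has no partner by column number, and the changes in this block were those found with anti-Dll4 2 left out. Beyond which libraries enter a fit, the cause of these turns was not tested. Of 279 values for named genes, 261 kept their direction and side of the threshold, 17 turned and 1 passed the threshold. None of the 16 named genes passed in the main fit. The 279 values are refits of the same libraries and are not independent. The labels tie libraries of the same number by nothing but that number. Their deviations correlated at 0.05, 0.05 and 0.07, against -0.04 to 0.02 for pairs of unlike number. Each control library correlated best with its own number. Whether such libraries share a batch or a pairing was not tested, and the main fit takes no account of it. The all-gene count of 13 was 3 with the block on title numbers and 4 on column numbers, 0 without the trend, 40 by voom, 83 and 103 scaled on rod and endothelial markers, and 3 to 22 with a library left out. Voom, both marker scalings and the block on column numbers were chosen after seeing the data. The 2 planned count models were not run, and voom on the whole reads was used in their place. At this depth 3 reads corresponded to 1.69 to 2.21 CPM, and 11 of the 45 members were below the filter.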
